A study of Mus musculus with 4 samples.

Results

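MPP1 gate cells are cells gated as multipotent progenitors that lie under set thresholds for CD150, CD48 and CD135 on their surface. They were picked here on barcoded antibody counts, cell by cell, from 3 libraries of transplanted mouse bone marrow. A barcode was kept when it had at least 1000 detected genes and at most 10% mitochondrial UMIs (unique molecular identifiers, which count RNA molecules). The antibody counts of each cell were turned into a centred log ratio, the natural log of 1 plus the count minus its mean over the 6 antibodies. Members had a ratio of at most -0.28 for CD150, at most 1.73 for CD48 and at most -0.94 for CD135. Of 18168 kept cells in the 3 libraries, 2404 were members. The series as a whole held 22916 kept cells in 4 libraries, and the library with both genes deleted was not used here.

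Haematopoietic stem cells (HSCs) renew themselves and give rise to every blood lineage. Their first descendants are multipotent progenitors, which have lost durable self-renewal but have not yet chosen a lineage. The MPP1 population lies next to the stem cell: it has lost CD150 and gained CD34, while MPP2, MPP3 and MPP4 cells lean towards megakaryocytic and erythroid, myeloid and lymphoid fates. Cells from all libraries were CD45.2+, lineage-negative, Sca1+ and Kit+, a sorted population called LSK, sampled 10 weeks past transplantation. The genotypes came as 1 library labelled control, 1 labelled Mll3 deleted and 1 labelled Mll4 deleted. Mll3 and Mll4 are histone methyltransferases of enhancers, encoded by Kmt2c and Kmt2d. How the genes were deleted, in which cells, and how many mice gave each library are not given in the sources used here. With 1 library per genotype, no difference between genotypes has a replicate check.

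The kept cells of the control, Mll3-labelled and Mll4-labelled libraries numbered 7274, 6101 and 4793, with median depths of 14454, 15381 and 21400 UMIs and median antibody totals of 1256, 1578 and 2398. The libraries shared 7 to 14 kept barcodes in pairs. The targeted genes were examined in the MPP1 gate first. Kmt2c stood at 81.6, 41.3 and 73.2 CPM (the gene's UMIs scaled to a common total over the gate's cells) in the 3 libraries in that order, so it was lowest in the library labelled for its deletion. Kmt2d stood at 26.8, 22.5 and 17.4 CPM there and at 25.2, 21.9 and 21.8 CPM in the HSC gate, so its log2 ratio of the Mll4-labelled library to the control was -0.62 in members but -0.20 in the HSC gate and -0.04 in the MPP3 gate. The UMIs come from the 3-prime end of messages and the deleted stretch is not given, so Kmt2d does not check the label, and the libraries are named by their labels.

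The gate held 1071 of 7274 control cells, or 14.7% (exact binomial 95% interval 13.9 to 15.6). It held 1048 of 6101 cells of the Mll3-labelled library, or 17.2% (16.2 to 18.2), and 285 of 4793 cells of the Mll4-labelled library, or 5.95% (5.29 to 6.65). The share was thus lowest in the Mll4-labelled library, where 70.2% of kept cells fell in the MPP3 gate against 44.4% in the control and 22.5% in the Mll3-labelled library. Intervals of shares cover counting error only, and the shares are shares of the sorted LSK cells, so a lower share cannot be told apart from more cells in other gates. Median depths of members were 11353, 13119.5 and 23550 UMIs.

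**Figure D1:**
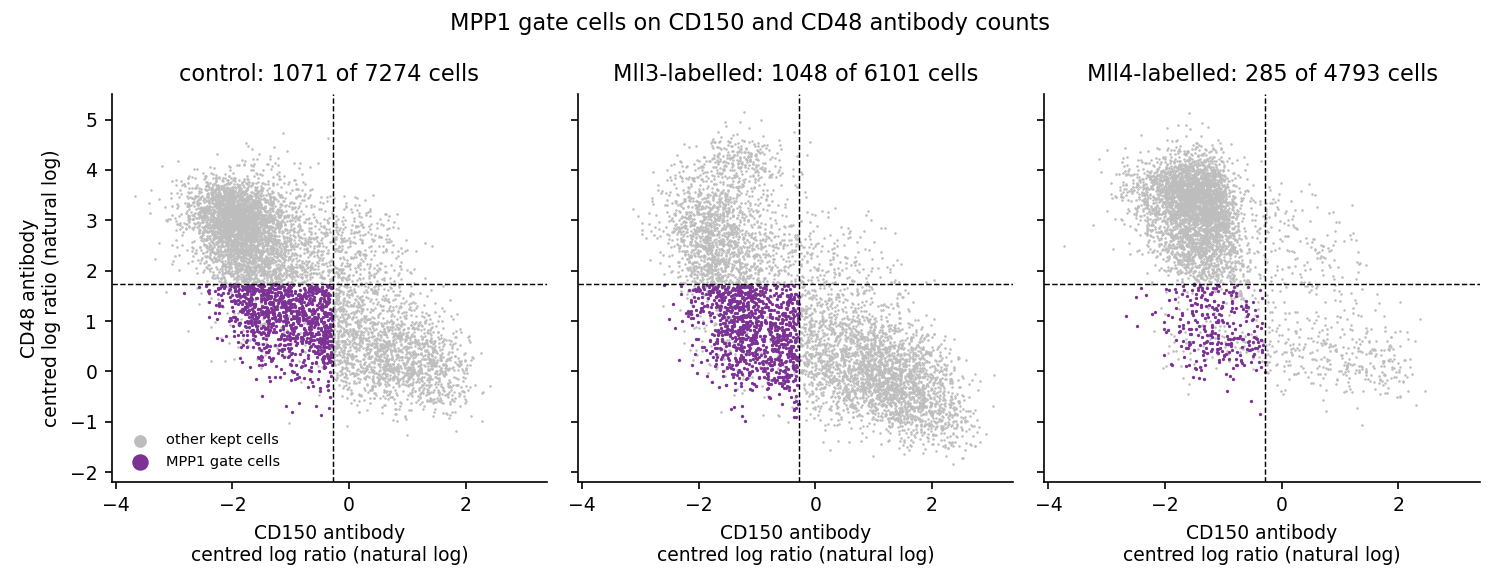
Each point is a kept cell, placed by its CD150 (x axis) and CD48 (y axis) antibody centred log ratios (natural log), in the control, Mll3-labelled and Mll4-labelled libraries. Dashed lines mark the thresholds at -0.28 and 1.73, and purple points are the 1071, 1048 and 285 members, which border the other kept cells on both lines without a gap.

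The thresholds cut through a continuous spread of cells. Just inside the CD150 threshold, within 0.25 units, lay 200, 184 and 35 members in the control, Mll3-labelled and Mll4-labelled libraries, with median CD150 counts of 51, 71 and 46. Just outside it lay 235, 178 and 32 cells with medians of 68, 99.5 and 62. On CD135 the corresponding medians were 21, 30 and 21 counts inside and 27, 37 and 30 outside. On CD48 they were 405, 539.5 and 510 counts inside, in 251, 172 and 45 members, and 522, 748 and 1016 outside. Members were thus not free of CD48. Its median count over all members was 216, 239 and 152, against 119, 113 and 126 in the HSC gate. Leaving out all cells within 0.25 units of any threshold left 473, 494 and 133 members.

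The rule had no threshold on CD34, CD201 or CD117, which entered it only through the mean over the 6 antibodies. CD34 set members apart from the HSC gate in each library. Its median count in members was 184 in the control, 441.5 in the Mll3-labelled and 199 in the Mll4-labelled library. In the HSC gate (CD150+CD48-CD135-) the medians were 67, 128 and 51. CD201, also known as EPCR and a stem cell receptor, had medians of 45, 27 and 40 in members and of 41, 38 and 43 in the HSC gate, so it did not part the gates in 1 direction. CD117, the Kit receptor, had medians of 213, 398 and 239 in members and of 245, 466 and 264 in the HSC gate.

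The label was checked against Cd34, Hlf and Meis1. Cd34 encodes a surface sialomucin, Hlf a transcription factor of stem and multipotent cells, and Meis1 a homeobox partner of Hox proteins. To compare libraries of unlike depth, each cell was thinned to 3000 UMIs. Hlf was then detected in 70.2%, 67.8% and 65.7% of members of the control, Mll3-labelled and Mll4-labelled libraries, Cd34 in 59.3%, 68.4% and 42.9%, and Meis1 in 47.9%, 54.2% and 41.1%. All 3 markers were missing in 6.92%, 5.07% and 12.5% of members. In cells of mature types from any gate, defined below, Hlf was detected in 7.81% of 64 control cells, 1.82% of 55 cells and 6.08% of 1085 cells, whose median depths before thinning were 17414.5, 21120 and 9086 UMIs. The 3 markers thus stood above that background in members, with the exception of Cd34 in the Mll4-labelled library, where 40.8% of mature-type cells also carried it. In the HSC, MPP3 and MPP4 gates of the control, Hlf was detected in 59.3%, 49.7% and 43.4% of cells. Meis1 was detected there in 53.0%, 36.9% and 31.5%, and Cd34 in 27.6%, 69.3% and 67.5%. Meis1 and Cd34 thus did not single out members from the other progenitor gates.

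Mast cell and neutrophil transcripts were far more abundant in members of the Mll4-labelled library than in the other 2. Cells with at least 1% of their UMIs in marker lists of mature types numbered 1, 1 and 20 among members. The 1 control cell was led by plasma cell genes, the 1 cell of the Mll3-labelled library by neutrophil genes, and of the 20 cells of the Mll4-labelled library 16 were led by mast cell genes and 4 by neutrophil genes. Over all members the 10 listed mast cell genes summed to 4.38, 1.30 and 627 CPM, with Cma1, Mcpt4, Tpsab1 and Tpsb2 at 0 in the control and Mll3-labelled libraries and Tpsab1 at 0 in the Mll4-labelled one. The 8 neutrophil genes summed to 20.1, 247.0 and 6495 CPM, and the 7 plasma and mature B cell genes to 947.0, 80.6 and 288.0 CPM, with Ms4a1 at 0 in all 3. The 9 erythroid genes summed to 75.6, 32.4 and 466.7 CPM, led by the haemoglobin gene Hbb-bt at 65.6, 27.1 and 428.7 CPM. The log2 ratio of Hbb-bt in the Mll4-labelled library to the control was 2.71, and 2.74 without the mature-type cells. Values without these cells are given beside several results that rest on such genes.

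Members were first set against the HSC gate, which differs from them in the rule by CD150 alone. Members carried more Flt3 and Cd34 and more of 4 lymphoid priming genes, and less of several megakaryocytic and erythroid genes. UMIs were summed per gate and library, and the 15 sums of 5 gates were fitted with edgeR's quasi-likelihood model with the library as a block. A gene is called at a Benjamini-Hochberg adjusted p under 0.05 over all genes tested. Errors are standard errors from the edgeR fit (n = 3 libraries). They rest on the spread of all sums in a fit, not on that of the 3 library differences alone. Because the 3 libraries are of 3 genotypes, their spread is not that of repeated animals. Of 13694 genes tested, 128 (0.935%) were called, 67 (0.489%) higher and 61 (0.445%) lower in members. This count rested on the libraries used: edgeR called 715 genes without the Mll4-labelled library, 2 without the control and 0 without the Mll3-labelled one, where 550 genes had an unadjusted p under 0.05.

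Flt3 (chromosome 5, 147330741 to 147400489, GRCm38) encodes CD135, the cytokine receptor whose antibody lies under the threshold in both gates. Its mRNA stood at 45.96, 52.4 and 53.5 CPM in members of the control, Mll3-labelled and Mll4-labelled libraries and at 9.87, 8.83 and 7.31 CPM in the HSC gate. The groups did not overlap, and the difference was 2.62 ± 0.26 on the log2 scale (SE of the fit, n = 3 libraries, edgeR adjusted p = 0.00171). The rule holds the CD135 antibody under the same threshold in both gates, so its counts (medians of 17, 24 and 17 in members and of 16, 24 and 18 in the HSC gate) cannot be set against the mRNA.

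Cd34 (chromosome 1, 194938819 to 194961279) followed the antibody. It stood at 309.1, 399.9 and 192.6 CPM in members and at 123.3, 146.5 and 74.96 CPM in the HSC gate, higher by 1.40 ± 0.17 (adjusted p = 0.00306, edgeR). Hlf (chromosome 11, 90336536 to 90390895) stood at 504.7, 423.1 and 454.5 CPM in members and at 347.1, 307.0 and 408.2 CPM in the HSC gate. It was higher in members in 3 of 3 libraries, but the difference of 0.38 ± 0.30 did not pass (edgeR adjusted p = 0.805). Meis1 (chromosome 11, 18879817 to 19018985) was lower in members in 3 of 3 libraries, by a log2 difference of -0.29 ± 0.23 that did not pass either (edgeR adjusted p = 0.819).

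In the lymphoid priming list, 4 of 14 genes were called higher and none lower, with a median log2 difference of 0.87 against 0.001 over all genes tested. Flt3, Satb1 and Cd52 were among them. Satb1, a chromatin organiser of lymphoid cells, stood at 14.0, 28.4 and 9.64 CPM in members and at 3.92, 4.99 and 3.44 CPM in the HSC gate. Cd52, a surface glycoprotein of lymphocytes, stood at 55.7, 46.4 and 33.5 against 15.1, 13.3 and 22.6 CPM, with no overlap between the gates. Myeloid priming genes gave no call in 16, at a median of 0.52, but 5 were called higher without the Mll4-labelled library and 2 with DESeq2. Without the Mll3-labelled or the control library no lymphoid gene was called, and without the Mll4-labelled one 4 were.

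The megakaryocyte and erythroid list had 5 of 16 genes called lower and none higher, at a median of -1.80. They were Vwf, von Willebrand factor of platelets, Gp1bb and Gp9, parts of its platelet receptor, Gata1, the erythroid master regulator, and Epor, the erythropoietin receptor. Vwf stood at 2.23, 1.96 and 1.01 CPM in members and at 18.2, 31.4 and 51.0 CPM in the HSC gate. Epor stood at 1.19, 1.24 and 0.58 against 5.38, 8.31 and 5.27 CPM. Every library showed the direction in both genes, at levels of a few CPM in members. None of the 5 was called without the Mll3-labelled or the control library, and 11 list genes were called without the Mll4-labelled one.

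Among HSC factors, 2 of 16 genes were called, both lower in members, with 0 without the control or the Mll3-labelled library and 5 lower and 1 higher without the Mll4-labelled one. Mllt3, a chromatin reader that maintains stem cells and was 1 of them, stood at 70.8, 46.8 and 77.3 CPM in members and at 131.1, 131.7 and 184.7 CPM in the HSC gate, a fall of 1.19 ± 0.18 on the log2 scale (edgeR adjusted p = 0.0155). From the HSC surface list, 3 of 16 were called lower: Vwf, Sult1a1 and Slamf1. Slamf1 encodes the CD150 protein by which the rule separates these gates, so its fall is a description. Vwf was also counted in the megakaryocyte and erythroid list. The HSC surface count was 1 without the control, 0 without the Mll3-labelled and 9 without the Mll4-labelled library. Slamf1 stood at 3.86, 2.15 and 2.59 CPM in members and at 28.9, 27.0 and 36.5 CPM in the HSC gate. Procr, the gene of CD201, did not separate the gates, at 66.7, 38.6 and 34.2 against 59.6, 44.8 and 38.7 CPM.

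Of the 16 genes with the largest called changes at 50 CPM or more, Nupr1, a stress-induced chromatin protein, was lowest in members against the HSC gate. It stood at 41.8, 30.0 and 19.0 CPM in members and at 120.7, 116.3 and 148.8 CPM in the HSC gate, a difference of -2.01 ± 0.40 (edgeR adjusted p = 0.0412). Plxnc1, a semaphorin receptor, fell by 1.17, Uba7, the activating enzyme of the ubiquitin-like ISG15, by 0.97, Nomo1 by 0.94, Nadk2, a mitochondrial NAD kinase, by 0.70 and Nt5c3 by 0.66 on the log2 scale. The higher side held, after Flt3 and Cd34, the transporter gene Slco3a1 at 0.83, the orphan receptor gene Gpr171 at 0.77, the exchange factor gene Vav3 at 0.65, the transcription factor gene Runx3 at 0.62, the phosphatase gene Ptpre at 0.51 and Arhgap15 at 0.48. These genes were picked among those with the same sign in 3 libraries, so that agreement is part of the choice.

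**Figure D2:**
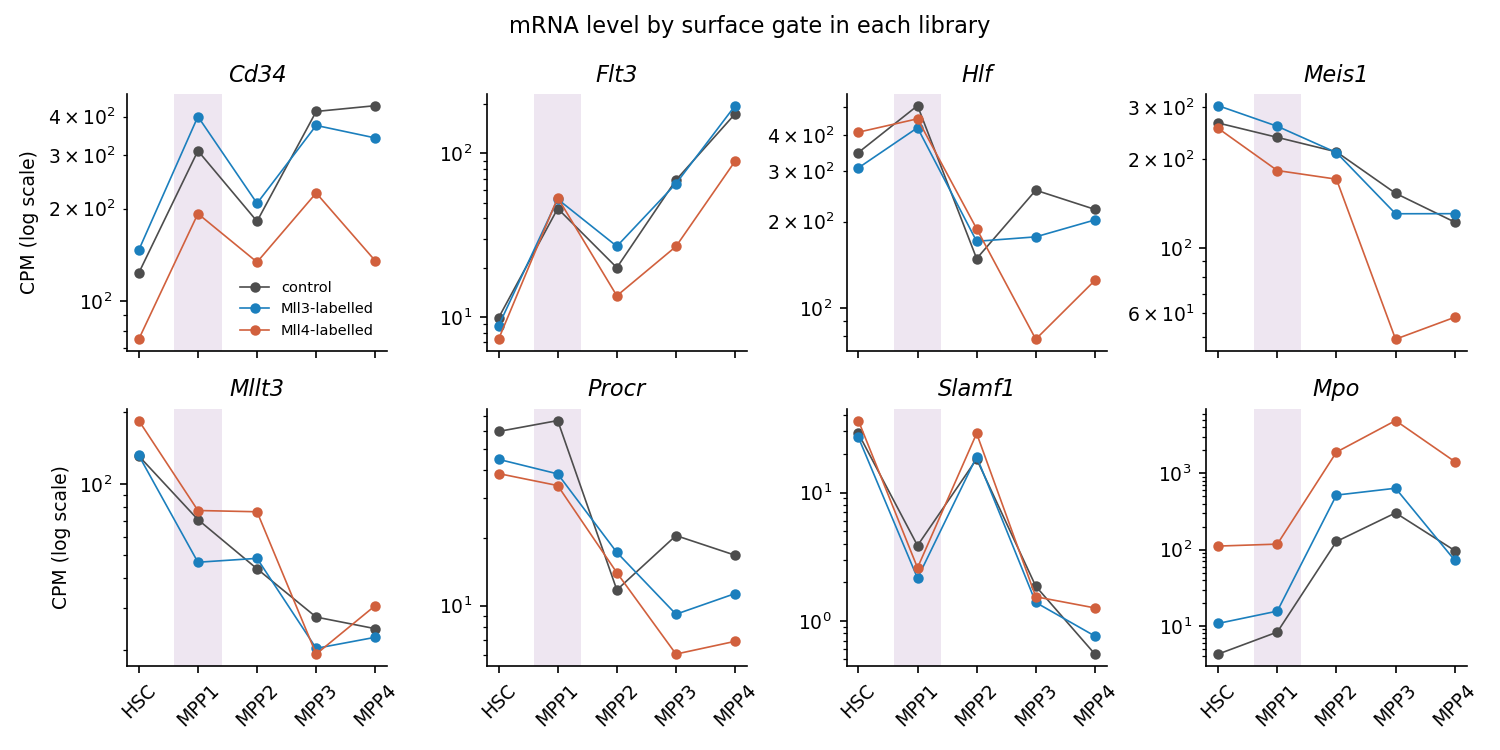
Each panel shows the CPM (log scale) of 1 gene in the HSC, MPP1, MPP2, MPP3 and MPP4 gates, with 1 line for each of the 3 libraries and the MPP1 gate shaded. Flt3 and Cd34 were higher in MPP1 than in HSC gate cells in each library, Slamf1 and Mllt3 were lower, and Mpo was higher in the MPP3 than in the MPP1 gate in each library.

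Against the MPP3 gate (CD150-CD48+CD135-), which differs in the rule by CD48 alone, members were far richer in stem cell genes and poorer in granule and mitotic genes. Of 13694 genes, 3547 (25.9%) were called, 1572 (11.5%) higher and 1975 (14.4%) lower. HSC factors were called higher in 10 of 16 and lower in none, at a median of 0.69, where the median of all genes was -0.02. The HSC surface list had 10 of 16 higher and none lower, at a median of 1.03. The same MPP1 sums enter this comparison and the others between gates, so these are not independent. Without the Mll3-labelled library 127 genes were called by edgeR in all and none in these lists. The counts of the HSC factor list were 8 without the control and 14 without the Mll4-labelled library, and those of the HSC surface list 5 and 14.

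Hlf and Meis1 were among the called genes. Hlf stood at 504.7, 423.1 and 454.5 CPM in members and at 256.8, 176.9 and 78.1 CPM in the MPP3 gate, higher by 1.39 ± 0.30 (edgeR adjusted p = 0.00848). Meis1 stood at 237.1, 258.5 and 183.0 against 153.2, 130.6 and 49.1 CPM, higher by 1.01 ± 0.23 (edgeR adjusted p = 0.0100). For both genes the MPP3 level was lowest in the Mll4-labelled library, and the gap widest there. In that library 27.0% of MPP3 gate cells were of mature types, against 0.929% in the control and 2.62% in the Mll3-labelled library. The levels in that gate are thus not those of progenitors alone. With mature-type cells left out of every gate, 2 of the 3 markers were still called higher in members. Cd34 was not higher in members, with a difference of -0.29 ± 0.16 (edgeR adjusted p = 0.207).

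Procr rose by 1.94 ± 0.26 and Cdkn1c, the inhibitor p57 that holds stem cells out of cycle, by 1.84 ± 0.28. Mecom, the stem cell factor EVI1, stood at 135.4, 118.6 and 334.6 CPM in members and at 64.8, 51.8 and 53.9 CPM in the MPP3 gate. Its level in members was highest in the Mll4-labelled library and its level in the MPP3 gate was alike in all 3. Nkx2-3, a homeobox factor, was higher by 1.68, Pdzk1ip1 by 1.66, Iigp1, an interferon-induced GTPase, by 1.60, Myl10 by 1.46 and Mllt3 by 1.40.

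Myeloid priming genes were called lower in 11 of 16 and higher in none. The proteases and peroxidase of neutrophil granules led them. Mpo stood at 8.32, 15.6 and 118.0 CPM in members and at 302.6, 636.4 and 4898 CPM in the MPP3 gate, a difference of -5.42 ± 0.44 (edgeR adjusted p = 0.000138). Elane differed by -6.62 ± 0.62, Ctsg by -5.76 ± 0.55 and Ms4a3 by -5.28 ± 0.52. Outside the list, F13a1, a coagulation factor of monocytes, stood at 0.22, 0.26 and 9.64 CPM against 6.79, 16.2 and 388.5 CPM. Its fitted fold change is not given, as its counts in members of the control and Mll3-labelled libraries were near 0. The list had 9 calls without the Mll3-labelled library and 10 without the control. Lymphoid priming genes were called lower in 10 of 14, and 2 without the Mll3-labelled library. Of B-cell genes, Cd79b stood at 27.9, 30.7 and 17.4 CPM in members. Cd79a stood at 1.71, 0.46 and 0.14 CPM against 7.21, 185.3 and 10.7 CPM, and Mzb1 at 1.34, 0.52 and 0.58 against 17.3, 107.3 and 38.6 CPM. Jchain, at 76.9, 5.80 and 29.8 CPM in members, differed by -5.36, but with mature-type cells left out of every gate the difference was 0.14 and not called.

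Against the MPP4 gate (CD150-CD135+), members were poorer in lymphoid and antigen-presentation genes. Of 13694 genes, 2613 (19.1%) were called, 1192 (8.70%) higher and 1421 (10.4%) lower. All 14 lymphoid priming genes were called lower, at a median of -4.19 beside -0.002 for all genes, and 9 of them without the Mll3-labelled and 11 without the control library. Flt3 was among them, at 174.2, 195.4 and 89.5 CPM in the MPP4 gate. The rule separates these gates by its protein, so its levels and its place in that count and median are a description. Flt3 mRNA ran from the HSC gate through MPP1 to MPP4 in each library, and the last step of that run follows the CD135 threshold. The Flt3 level in the MPP3 gate did not differ from that in members beyond the error (-0.08 ± 0.23, edgeR adjusted p = 0.826).

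Il7r, the interleukin 7 receptor, stood at 0.07, 0.85 and 1.29 CPM in members and at 18.3, 62.2 and 55.6 CPM in the MPP4 gate. Dntt, the terminal transferase of early lymphocytes, stood at 3.86, 8.67 and 21.0 against 565.1, 944.2 and 150.2 CPM. It was the Mll4-labelled library that held the most Dntt in members and the least in the MPP4 gate. All 7 MHC class II genes were called lower, at a median of -2.58, with 1 left without the Mll3-labelled library and 5 without the control. Cd74, the invariant chain, stood at 87.3, 150.8 and 227.2 against 508.6, 1010 and 3994 CPM.

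Large called falls included genes of the B lineage and of other mature cells. Ly6d, also of the lymphoid list, stood at 1.41, 0.46 and 1.01 CPM in members and at 48.4, 208.7 and 162.2 CPM in the MPP4 gate. Ebf1, the B-cell commitment factor, had 0, 0.20 and 0.14 CPM in members against 16.4, 130.0 and 21.1 CPM, and Vpreb3 0.07, 0.78 and 0 CPM against 14.2, 123.3 and 13.6 CPM. At counts that near 0 the fitted fold change depends on the model's prior count and is not given. Lyz1 and Cxcl12, markers of macrophages and of stroma, reached 188.3 and 174.3 CPM in the MPP4 gate of the Mll4-labelled library, where 36.3% of cells were of mature types.

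On the higher side, HSC factors were called in 10 of 16 at a median of 0.92, with 1 left without the Mll3-labelled library and 5 without the control. Gata2, a stem cell GATA factor, stood at 91.5, 97.9 and 76.4 CPM in members and at 22.5, 25.4 and 42.9 CPM in the MPP4 gate, higher by 1.47 ± 0.21 (edgeR adjusted p = 0.00124). Other genes at 50 CPM or more with large rises were Csgalnact1 at 2.15, Sdsl at 2.10, Pdzk1ip1 at 1.97, Dach1 at 1.77, Gng11 at 1.70, Krt18 at 1.62 and Myct1 at 1.53. Dach1, a transcriptional regulator, had 62.1, 65.8 and 68.5 CPM in members and 14.5, 15.6 and 23.1 CPM in the MPP4 gate, with no overlap.

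Cell cycle transcripts were compared next. The S phase and G2M phase lists gave no call in 16 genes each between members and the HSC gate, at medians of -0.05 and -0.06. Against the MPP3 gate, 14 of 16 G2M genes fell in members, at a median of -0.76, and 5 of 16 S phase genes. The G2M count was 4 without the control, 0 without the Mll3-labelled and 16 without the Mll4-labelled library, and the S phase count 2, 0 and 16. Plk1, a mitotic kinase, stood at 13.8, 26.0 and 21.7 CPM in members against 33.6, 51.5 and 39.3 CPM, and Mki67, the proliferation antigen, at 224.4, 361.8 and 307.3 against 459.3, 518.2 and 392.8 CPM.

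Counted per cell, the share of members with at least 2 UMIs of the G2M list after thinning was 19.6% in the control (95% interval 17.3 to 22.2), 33.8% in the Mll3-labelled (30.9 to 36.7) and 31.1% in the Mll4-labelled library (25.7 to 36.9). Without thinning the shares were 39.3%, 57.1% and 78.6%, beside median depths of 11353, 13119.5 and 23550 UMIs. The HSC gate had 23.0%, 31.7% and 35.9%, and the MPP3 gate 51.7%, 60.7% and 40.1%. Members were below the MPP3 gate in 3 of 3 libraries by 22.7 ± 12.1 percentage points (SD, n = 3; exact sign permutation test, two-sided p = 0.25, the smallest p that 3 libraries allow). They were below the HSC gate in 2 of 3, by 2.06 ± 3.61 points (exact p = 0.5), and below the MPP4 gate in 2 of 3, by 7.81 ± 13.3 points (exact p = 0.5).

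**Figure D3:**
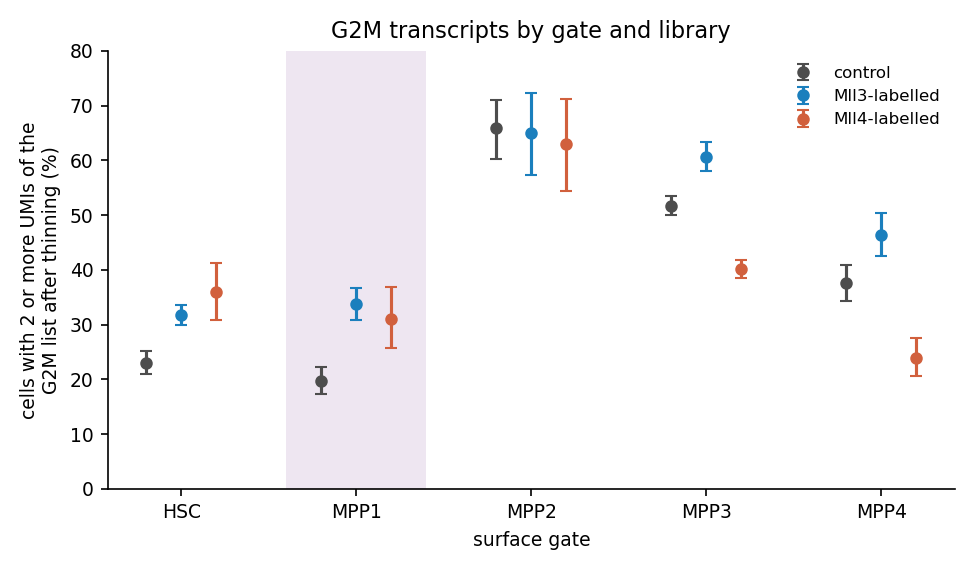
Each point is the percentage of cells of 1 gate and library with 2 or more UMIs of the G2M list after thinning to 3000 UMIs, with exact binomial 95% bars that cover counting error only. Members (shaded) lay between 19.6% and 33.8%, below the MPP2 gate and the MPP3 gate of their own library.

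Members were not alike among themselves when split on antibodies on which the rule set no threshold. In each library they were split at the median centred log ratio of CD34 into an upper and a lower group, and the 6 sums were tested with edgeR with the library as a block. Cells with more CD34 carried more mitotic transcripts and fewer immediate early and stem cell surface transcripts. Of 12170 genes, 824 (6.77%) were called, 441 (3.62%) higher and 383 (3.15%) lower in the upper group, and the median of all genes was -0.013. The antibody medians were 258, 589.5 and 264.5 counts in the upper groups and 129.5, 295 and 128 in the lower. The upper groups were also deeper, at medians of 12152, 14710.5 and 25897 UMIs against 10588, 11986 and 21077, and had lower CD201 medians of 37, 22 and 27 counts against 55.5, 40 and 63. CD150 medians were lower in them too, at 18, 26 and 18.5 counts against 31, 38 and 28. CD48 medians were 224, 238 and 138.5 against 205, 243.5 and 171. The split thus also moved along CD150, and which antibody the genes follow was not tested.

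All 16 G2M genes were higher in the CD34 upper group, at a median of 1.07. All 16 were called without each library in turn, without mature-type cells and with DESeq2, and 15 after thinning to 3000 UMIs. Cenpf, a kinetochore protein, stood at 156.2, 248.7 and 189.7 CPM in the upper groups and at 65.4, 87.7 and 64.7 CPM in the lower, higher by 1.41 ± 0.06 (edgeR adjusted p = 1.43e-11). Mki67 stood at 298.2, 507.4 and 398.9 against 138.9, 192.3 and 191.8 CPM, higher by 1.17 ± 0.06. In thinned cells the G2M share was 24.9%, 44.9% and 38.3% in the upper groups and 14.4%, 22.6% and 23.7% in the lower. Aspm, Hmmr, Ube2c, Ccnb1 and Kif11, which act in mitosis, rose by 1.22 to 1.50, and Cdk6, the kinase of cell cycle entry, rose by 0.43. Slc16a11, a carrier gene at 199.7 CPM in the upper group of the Mll4-labelled library and under 10 CPM in the other 2, rose by 1.23. S phase genes were called higher in 4 of 16, in 0, 2 and 8 without the control, the Mll3-labelled and the Mll4-labelled library, in 0 with DESeq2 and in 12 when split on the plain antibody count, a setting chosen after the data were seen.

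The lower CD34 group carried more of the stem cell surface genes. Of the HSC surface list 8 of 16 fell in the upper group and none rose, at a median of -0.47, with 5 to 7 called when 1 library was left out. Procr stood at 56.1, 27.4 and 21.7 CPM in the upper groups and at 79.0, 51.6 and 50.1 CPM in the lower, a difference of -0.79 ± 0.10 (edgeR adjusted p = 1.99e-05). Cdkn1c differed by -0.65 ± 0.12 and Slamf1 by -1.15 ± 0.32, of which neither was called without the control, nor Slamf1 without the Mll4-labelled library. Mllt3 stood at 55.1, 39.8 and 64.3 against 88.9, 55.0 and 93.6 CPM, a difference of -0.60 ± 0.07. Hlf and Meis1 did not pass, at 0.03 ± 0.05 and -0.16 ± 0.05 (edgeR adjusted p = 0.779 and 0.0717). Cd34 mRNA stood at 351.5, 444.1 and 220.9 against 260.0, 348.6 and 157.1 CPM, as a description, since the split used its protein.

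Immediate early genes, which are switched on within minutes of a stimulus or of cell handling, fell in 7 of 9 tested members of their list. Fos stood at 34.7, 89.4 and 17.8 CPM in the upper groups and at 67.5, 150.2 and 31.5 CPM in the lower, a difference of -0.85 ± 0.07 (edgeR adjusted p = 9.5e-08). Junb differed by -0.50 ± 0.07 and Egr1 by -0.49 ± 0.12, the latter with the opposite sign in the Mll4-labelled library and not called without the control or the Mll3-labelled one. Ppp1r15a, a stress phosphatase regulator, differed by -0.84 ± 0.09. The count was 4, 5 and 7 without the control, the Mll3-labelled and the Mll4-labelled library.

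Among genes averaging 50 CPM or more with the same sign in 3 libraries, the largest falls were those of Lcn2, Ngp, Camp, S100a8, Chil3 and Wfdc21. These genes, made by neutrophils and macrophages, fell by 1.96 to 2.78 on the log2 scale. The size of the fall was not alike in the libraries. Camp stood at 2.21, 1.09 and 315.1 CPM in the upper groups and at 2.24, 84.6 and 1091.5 CPM in the lower. S100a8 stood at 5.26 against 7.37 CPM in the control. All 6 tested genes of the neutrophil list were called lower, but none was called with the 22 mature-type members left out, and the sign turned for Ngp (0.18) and Chil3 (0.15). Mast cell genes were called lower in 5 of 8 tested at a median of -1.48, in 3 of 7 without the mature-type members, in 0 of 1 without the Mll4-labelled library and in 0 with DESeq2. Split on the plain antibody count, 3 were called higher and none lower, at a median of 0.47, so their direction turned with the split.

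Splitting members at the median of CD201 gave the opposite picture for the cell cycle. Of 12128 genes, 1410 (11.6%) were called, 598 (4.93%) higher and 812 (6.70%) lower in the upper group, and the median of all genes was 0.006. CD201 medians were 72, 53 and 66 counts in the upper groups and 26, 17 and 26 in the lower. The same cells enter both splits, and CD34 medians were 164, 362.5 and 140.5 in the CD201 upper groups and 210.5, 520.5 and 257 in the lower, so the splits are not independent. The upper groups were shallower here, at 10382, 11788 and 21244 UMIs against 12509, 15034 and 25743. They also had lower CD48 medians, at 182, 167.5 and 131.5 counts against 254.5, 310 and 202. CD150 medians were 20, 29 and 20 against 26, 37 and 25. Which antibody the genes follow was not tested here either.

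All 16 G2M genes fell in the CD201 upper group, at a median of -1.17, and 14 of 16 S phase genes, at a median of -0.40. The G2M count was 14 without the control or the Mll3-labelled library and 16 without the Mll4-labelled one, and the S phase counts were 7, 7 and 15. On the plain antibody count 15 G2M and 10 S phase genes were called, at medians of -0.58 and -0.25. Cenpf stood at 50.4, 91.7 and 84.6 CPM in the upper groups and at 166.4, 239.7 and 175.5 CPM in the lower, a difference of -1.41 ± 0.09 (edgeR adjusted p = 1.47e-05). The G2M share of thinned cells was 11.6%, 22.0% and 28.1% in the upper groups and 27.7%, 45.4% and 34.0% in the lower. Aspm and Ccnb1 fell by 1.53 and 1.47, and Ube2c, Hmmr, Ccnb2, Tpx2 and Mki67 by 1.16 to 1.39. Cdkn2c, the CDK inhibitor p18, fell by 0.44 and Txnip, a growth-restraining arrestin, rose by 0.50 ± 0.04.

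Some stem cell genes rose with CD201. Procr, whose protein the antibody binds, stood at 95.2, 65.5 and 59.5 CPM in the upper groups and at 43.3, 17.3 and 13.4 CPM in the lower. Of 16 HSC factors 7 rose and none fell, with 4 called without the control, 4 without the Mll3-labelled and 8 without the Mll4-labelled library, where 2 were also called lower. Of the HSC surface list 6 of 16 rose and Itga2b, an integrin of platelets, fell, with 3 higher and 1 lower called without the control, 3 higher without the Mll3-labelled and 7 higher and 3 lower without the Mll4-labelled library. Mllt3 stood at 95.9, 66.3 and 98.3 against 50.1, 31.3 and 59.9 CPM, higher by 0.92 ± 0.07 (edgeR adjusted p = 5.05e-05). Hlf rose by 0.44 ± 0.06 (not called without the Mll3-labelled library), Mecom by 0.38 ± 0.05 and Prdm16, a self-renewal factor, by 0.45 ± 0.13, the last not called without the control or the Mll3-labelled library. Cd34 mRNA fell by 0.28 ± 0.06 and was not called without the control or the Mll3-labelled library either.

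Immediate early genes rose in 6 of 9, with 3 to 7 called when 1 library was left out. Fos rose by 0.73 ± 0.13 and Dusp1, a phosphatase of the same response, by 0.71 ± 0.11. MHC class II genes rose in 4 of 7, where Cd74 stood at 141.8, 260.8 and 283.4 CPM in the upper groups and at 42.6, 63.7 and 180.7 CPM in the lower, higher by 1.46 ± 0.19 (edgeR adjusted p = 0.000949). H2-Eb1 rose by 0.83 ± 0.20, with 56.7 against 20.7 CPM in the control and 176.8 against 170.0 CPM in the Mll4-labelled library, and was not called without the control or the Mll3-labelled library. The MHC class II count was 1 without the control and 1 without the Mll3-labelled library.

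Interferon response genes rose in 7 of 14, led by Ifit1 at 0.89 ± 0.23 and Rsad2 at 0.77 ± 0.17. Of the list 1 gene was called without the control, neither of these, and 3 when the split was made on the plain antibody count, a setting chosen after the data were seen. Flt3 rose by 0.38 ± 0.08, at 50.4, 63.3 and 60.1 against 42.3, 43.8 and 48.1 CPM, and was not called without the control or the Mll3-labelled library. Neutrophil genes and Jchain were higher in the CD201 upper group, by 1.95 to 2.78, and without the mature-type members 2 of the 6 tested neutrophil genes were called, with Chil3 turned in sign (-0.23). Jchain differed by 0.36 without those members, and was not called. Mast cell genes were called lower in 5 of 8 tested at a median of -1.64, but 1 of 7 without the mature-type members, 0 of 1 without the Mll4-labelled library and 0 with DESeq2, and on the plain antibody count 3 were called higher and none lower, at a median of 1.12.

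**Figure D4:**
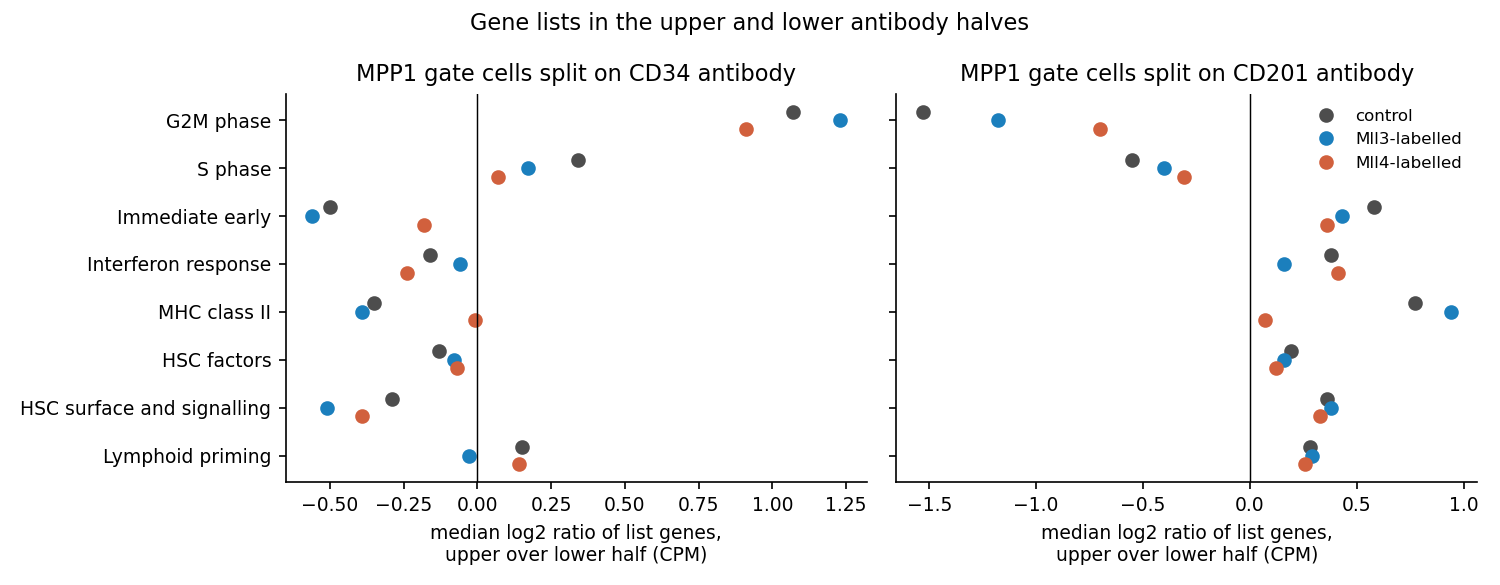
Each point is the median log2 ratio (CPM, upper over lower group) of the genes of 1 list at 20 CPM or more in 1 library, for members split on the CD34 antibody (left) and on the CD201 antibody (right). G2M genes stood at 0.91 to 1.23 on the CD34 split and at -1.53 to -0.70 on the CD201 split, while immediate early genes lay on the other side of 0 in both.

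In the single library of each genotype, members of the Mll3-labelled library carried more transcripts of the cell cycle, of the immediate early response and of MHC class II than control members. Genotypes were compared as log2 ratios of CPM after adding 0.5 UMIs, with an exact 95% interval for counting error, and with no test. Of 6492 genes at 20 CPM or more in 1 of both libraries, 90 (1.39%) differed by 2-fold or more, 45 (0.693%) higher and 45 (0.693%) lower. Of all 6492 genes, 4290 were above the control. Their median was 0.107, and with TMM scaling it was 0.045, with 30 higher and 52 lower, so the even split depends on the scaling.

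G2M genes were above the control in 16 of 16, at a median of 0.88, with 5 at 2-fold or more. In the HSC, MPP3 and MPP4 gates the medians of the same list were 0.53, 0.56 and 0.59. Ccnb1, cyclin B1, stood at 50.6 against 23.0 CPM in the control, a log2 ratio of 1.13 (0.94 to 1.33). Ube2c stood at 190.6 against 92.6 CPM, a ratio of 1.04 (0.95 to 1.14). With the highest doublet scores removed the median was 0.80 and 1 gene reached 2-fold. S phase genes were above the control in 16 of 16 at a median of 0.47, beside 0.34, 0.27 and 0.44 in the HSC, MPP3 and MPP4 gates. Rrm2 of that list, a ribonucleotide reductase subunit, stood at 1.08 (0.88 to 1.29), and Cdkn2c stood at 1.05 (0.90 to 1.22).

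Immediate early genes were above the control in 8 of 8, at a median of 0.85. Fosb stood at 127.8 against 41.9 CPM, a log2 ratio of 1.61 (1.47 to 1.75). Egr1 stood at 79.7 against 30.1 CPM and Fos at 117.5 against 49.9 CPM, ratios of 1.40 (1.24 to 1.57) and 1.24 (1.11 to 1.37). The medians of this list were 1.03, 0.90 and 0.85 in the HSC, MPP3 and MPP4 gates, so it was as high outside the MPP1 gate. MHC class II genes were above the control in 6 of 6, at a median of 0.69. In the HSC, MPP3 and MPP4 gates 6 of 6 were also above the control, at medians of 0.42, 1.42 and 0.83.

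Tspan32, a tetraspanin, stood at 44.9 against 190.2 CPM, a ratio of -2.08 in members and of -1.75 in the HSC gate. Lst1 and Tnip3, an inhibitor of NF-kappaB signalling, stood at ratios of -2.13 and -2.22 in members and of -2.40 and -1.79 in the HSC gate. Fyb, Ltb and Slc18a2 stood at -1.66, -1.18 and -1.16 in members and at -1.79, -1.30 and -1.28 in the HSC gate. Myl10 stood at 196.5 against 538.6 CPM, a ratio of -1.45 in members and of -0.28 in the MPP4 gate. It was also lower than the control in the MPP3 gate, at 115.1 against 206.3 CPM. Bex4 and Selenom were higher, at 1.69 and 1.62 in members and at 1.32 and 1.24 in the HSC gate. Tpm3-rs7 was higher at 1.21, but it resembles Tpm3, and reads could be split between them.

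No HSC factor reached 2-fold. Of 14 measured, 4 were above the control, at a median of -0.07. Procr stood at 38.6 against 66.7 CPM, a ratio of -0.79 (-0.94 to -0.64), in the same direction as the CD201 antibody medians of 27 against 45 counts. Pf4, a platelet chemokine, stood at 6.65 against 30.9 CPM (-2.21, interval -2.54 to -1.90). S100a8 and S100a9 had ratios of 3.30 and 3.02 that rested on 1 cell with 94.3% and 93.2% of their UMIs, and Jchain had a ratio of -3.72, where 1 control cell held 93.0% of the UMIs. Without mature-type cells these ratios were -0.82, -0.84 and 0.09.

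Members of the Mll4-labelled library had fewer immediate early transcripts and more MHC class II and Mecom transcripts than control members, while granule genes went in both directions. Of 6494 genes, 379 (5.84%) differed by 2-fold or more, 193 (2.97%) higher and 186 (2.86%) lower, with a median of -0.089 over all genes, of which 2661 were above the control. When every cell had equal weight, 60.3% of these genes were higher in place of 50.9%. This comparison shares the control members with the one before, and it rests on 285 cells with a median depth of 23550 UMIs against 11353 in the control.

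Immediate early genes stood below the control in 7 of 8, with 5 at 2-fold or more, at a median of -1.06. Zfp36, an mRNA decay factor, stood at 12.2 against 43.8 CPM (-1.83, interval -2.19 to -1.51), Ier2 at 57.1 against 149.8 CPM (-1.39) and Fos at 23.9 against 49.9 CPM (-1.06). Egr1 was the exception, at 68.5 against 30.1 CPM, a ratio of 1.19 (0.99 to 1.38). In the HSC gate the list's median was -0.47, and in the MPP3 and MPP4 gates it was 0.21 and 0.41. Whether the gates differ was not tested.

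Among HSC factors Mecom alone reached 2-fold, at 334.6 against 135.4 CPM, a ratio of 1.31 (1.22 to 1.40). Its ratio was 1.43 in the HSC gate, 0.74 in the MPP4 gate and -0.27 in the MPP3 gate. Procr stood at -0.96 (-1.17 to -0.75) and Cd34 at -0.68 (-0.77 to -0.59), while Kit, the stem cell factor receptor, stood at 429.6 against 259.3 CPM (0.73) and Cdkn1c at 45.2 against 27.4 CPM (0.72). G2M genes were above the control in 15 of 16 at a median of 0.38, with Aurka at 2-fold or more (1.12) and Birc5 at -0.04.

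Lymphoid and antigen-presentation genes included some of the higher ones. Ighm, the immunoglobulin heavy chain gene of which early progenitors carry unrearranged transcripts, stood at 92.7 against 18.4 CPM (2.33), and Dntt at 21.0 against 3.86 CPM (2.43). Ighm was also higher by 2-fold or more in the HSC, MPP3 and MPP4 gates, while Dntt was lower by 2-fold or more in the MPP4 gate. MHC class II genes were above the control in 5 of 6 at a median of 1.18, with H2-Eb1 at 173.1 against 36.9 CPM (2.23), Cd74 at 1.38 and H2-Aa at 1.37. The MPP3 and MPP4 gates had list medians of 2.83 and 2.97, the HSC gate 0.60. Interferon response genes stood below the control in 6 of 8, at a median of -0.41.

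The highest ratios belonged to mast cell and neutrophil genes. Cma1, Tpsb2 and Mcpt4, mast cell proteases, stood at 203.6, 72.2 and 59.4 CPM and had 0 UMIs in control members. Their log2 ratios with 0.5 UMIs added, which depend on that addition, were 12.42, 10.93 and 10.65 with and 9.12, 7.92 and 8.78 without the mature-type cells. Set against the 3 UMIs that a count of 0 allows in the control, they were at least 914-fold, 324-fold and 267-fold higher. Ngp, Ltf, S100a8, Lcn2 and Wfdc21, made by neutrophils, stood at ratios of 8.20 to 8.96. Without the mature-type cells the ratios of these 5 were 2.84 to 3.61. Of 8 measured myeloid priming genes 3 were 2-fold or more higher and 3 lower, at a median of -0.21. Mpo, Elane and Ctsg stood at ratios of 3.82, 4.39 and 4.36 with those cells and of 3.82, 4.38 and 3.70 without them. Prtn3, a protease of the same granules, stood at 160.8 against 459.2 CPM (-1.51), Plac8 at -1.35 and Csf3r, the G-CSF receptor, at -2.03. After thinning, Mpo was detected in 33.6% of members (28.1 to 39.4) in this library and in 3.18% in the control, but also in 27.3% of its HSC gate cells and in 46.1% of its mature-type cells, which had median depths of 24741 and 9086 UMIs. The part of free RNA in these values was not tested.

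Among lower genes, Tspan32 stood at 28.6 against 190.2 CPM (-2.73), the direction it had in the Mll3-labelled library. Ltb, lymphotoxin beta, stood at -2.27, Nkg7 at -2.38, Otos at -2.26, Rnase6 at -2.24 and Ier3 at -2.43. Apoe stood at 43.9 against 237.2 CPM, a ratio of -2.43 in members and of 2.35 in the MPP4 gate. Tpm3-rs7 stood at -4.77 here, opposite to the Mll3-labelled library, with the same doubt over its copy Tpm3. Ifitm1, an interferon-induced membrane protein of stem cells, stood at 274.8 against 776.3 CPM (-1.50). Ifitm1 and Nkg7 were also lower by 2-fold or more in the HSC, MPP3 and MPP4 gates, so their falls were not particular to members.

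**Figure D5:**
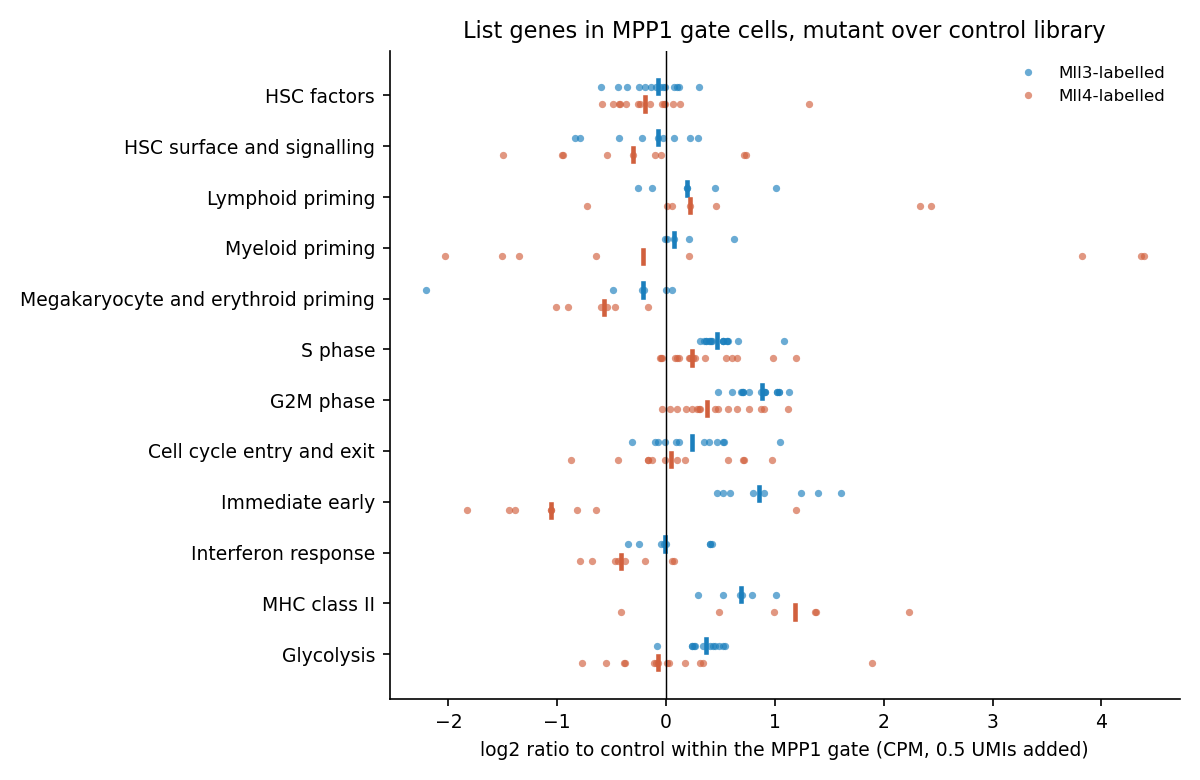
Each point is the log2 ratio to the control (CPM, 0.5 UMIs added) of 1 list gene at 20 CPM or more in members, for the Mll3-labelled and Mll4-labelled libraries, and bars are list medians. Immediate early genes had medians of 0.85 and -1.06 in these libraries, and G2M genes 0.88 and 0.38.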

How the data were processed

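Sorted bone marrow cells were profiled by droplet single-cell RNA sequencing (10x 3-prime v3.1) with barcoded antibodies, 1 library per genotype, per the labels. The deposited counts are UMIs per gene and antibody in each barcode, made by the authors with Cell Ranger 6.1.1 against mm10, per the submitters' processing notes. The members and gene lists were chosen with earlier results of these data known.

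Barcodes were filtered and gated as described above. Doublets were kept in the main analysis and the highest scores (scanpy 1.11.5) were removed in an alternative. UMIs were summed per library and gate, or per library and antibody group, and tested with edgeR 4.0.16 (R 4.3.3; TMM, filterByExpr, quasi-likelihood, library as a block, Benjamini-Hochberg adjustment). The library pairs the sums because gates and antibody groups come from the same library. Genotype ratios have no test, and their intervals cover counting error only. The libraries held 119328763, 105907176 and 120700343 UMIs in kept cells. The genes named are the markers, the 8 highest and 8 lowest called genes per comparison at 50 CPM or more with the same sign in 3 libraries, the 8 highest and lowest genotype ratios at 50 CPM or more, and list genes. Genes named outside this rule (list genes under 20 CPM, such as Epor, Ifit1 and Rsad2) were chosen after their values were seen. Alternatives covered DESeq2 1.42.0, size factors, filters, thinning, doublets, gate margins, mature-type cells, and each library left out. The scripts were tested on simulated data. Coordinates of genes come from GENCODE vM21 (GRCm38). A few genes that this rule names are not reported here.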

Additional observations from a re-analysis of the deposited data

How the results depend on the processing

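Counts of called genes moved with the design more than with scaling. For the HSC, MPP3 and MPP4 gates in turn, fits of only the 2 gates compared called 1761, 425 and 665 genes, thinned cells gave 45, 806 and 767, and leaving out 1 library gave 0 to 715, 127 to 4321 and 410 to 3944. Against the HSC gate DESeq2 called 355 and leaving out cells near a threshold 73. For the CD34 and CD201 splits DESeq2 called 284 and 433, thinning gave 267 and 478, and leaving out 1 library gave 303 to 869 and 205 to 2304. Splitting at the plain CD201 count, chosen after the data were seen, gave 604. The cause of these shifts was not tested.

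Without the replicate block (the library), edgeR called 3, 125 and 320 genes for the HSC, MPP3 and MPP4 gates and 0 for each split, with 315 and 467 at an unadjusted p under 0.05. No paired analysis was possible because each genotype has 1 library, for the genotype ratios. A minimum of 5 CPM gave 278 and 801 genes at 2-fold for the Mll3-labelled and Mll4-labelled libraries, and 100 CPM gave 19 and 132.

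Members away from every threshold made up 6.50%, 8.10% and 2.78% of all kept cells. With cells near a threshold left out of every gate, they made up 10.2%, 12.3% and 4.11% of the cells left. The share of members was 11.9%, 14.8% and 6.89% under a stricter cell filter (2000 genes or more, 5% mitochondrial UMIs or less). It was 7.31% in the Mll4-labelled library without mature-type cells. That stricter filter gave G2M shares of 25.3% and 38.8% in the control and Mll3-labelled libraries, and no thinning gave 39.3%, 57.1% and 78.6%.

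Signs turned without mature-type cells for Jchain against the MPP3 gate (0.14), for Chil3 (0.15) and Ngp (0.18) on the CD34 split and for Chil3 (-0.23) on the CD201 split. In the Mll3-labelled library they turned for Jchain (0.09), Igkc (0.32), S100a8 (-0.82), S100a9 (-0.84), Ngp (-1.44) and Camp (-0.99), and under the stricter filter for the last 4 of these (-0.92, -0.95, -0.56 and -0.98). In the Mll4-labelled library they turned for Jchain (2.43, or 0.09 with equal weight per cell) and Igkc (2.86). Depth limits genes of a few CPM, above all in the 285 members of the Mll4-labelled library.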
